A study of Mus musculus with 10 samples.

Results

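The co-stimulatory and checkpoint ligands examined were 9 genes: Cd40, Cd80, Cd86, Cd83, Icosl, Cd274, Pdcd1lg2, Tnfsf9 and Icam1. The genes were taken by gene symbol from the probe annotation, which gave 9 genes and 11 probes; 8 of the 9 genes could be tested, among 18051 genes tested in all. The cells were RAW264.7, a line of mouse macrophage-like cells, and RNA was read on 10 single-colour arrays in 5 groups of 2. The groups were Dex (dexamethasone), FF (fluticasone furoate), VSG22, VSGC12 and EtoH, the solvent. Per the labels, a glucocorticoid was given at 100 nM, lipopolysaccharide (LPS, a bacterial activator of macrophages) followed 1 h later at 1 µg/ml, and RNA was collected at 16 h. The labels do not state that the EtoH cells received LPS, so an effect of a glucocorticoid and of any difference in LPS cannot be told apart in a comparison with EtoH. No group was described as unstimulated.

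A T cell that meets its antigen on a macrophage or dendritic cell also reads other proteins on that cell's surface. CD80 and CD86 engage the activating receptor CD28 and the inhibitory receptor CTLA-4, ICOSL engages ICOS, and TNFSF9 engages TNFRSF9, a receptor of the TNF family. CD274 (PD-L1) and PDCD1LG2 (PD-L2) engage the inhibitory receptor PD-1. CD40 is itself a receptor: its ligand on T cells drives the presenting cell to raise CD80 and CD86. ICAM1 holds the cells together through the leukocyte integrins, and CD83 marks activated dendritic cells and macrophages and keeps MHC class II and CD86 on the surface. LPS induces many of these ligands, and glucocorticoids are known to restrain that induction in antigen-presenting cells.

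Levels are log2 signals relative to the array's own 75th percentile, so 0 is that percentile and 1 unit is a doubling of signal; levels of different probes were not set against each other. A change was called at an adjusted p under 0.05 (limma moderated test, Benjamini-Hochberg over all genes tested in the comparison), and errors of changes are SE. The labels do not say whether the 2 arrays of a group came from separate cultures, so p-values measure the spread between these arrays, which may be technical. Replicate 1 of every group lay on slide 1 and replicate 2 on slide 2, so a value within each slide can be given. Each group had the same position on both slides, and position and group cannot be told apart. Between 40.1% and 44.4% of spots were well above background on an array, and 0 were saturated. The 2 Dex arrays differed more between replicates than the other pairs did: the SD of the difference over genes was 0.63, against 0.33 to 0.41 in the other 4 groups.

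Markers of the labelled macrophage line were present, with 9 or 10 of the 10 listed above background on each array and Mrc1 above it on the EtoH arrays only. Their summed linear level was 624 to 694 on the glucocorticoid arrays and 524 on both EtoH arrays, but gene by gene they were mixed: 3 were higher (Itgam by 1.29, Csf1r by 1.18 and Lyz2 by 0.94 log2), 3 lower (Mrc1, Ptprc at -0.68 and Adgre1 at -0.24) and 4 not called, with a median change of -0.02. Of 8 dendritic cell markers 3 were above background (Zbtb46, Batf3 and Siglech), summing to 126 to 169 against 115 to 140 in EtoH, while Flt3, Clec9a, Xcr1, Ccr7 and Cd209a were above it on 0 arrays. T cell markers summed to 54.3 to 130 on the glucocorticoid arrays against 41.1 to 42.4 in EtoH. Cd4, Lck and Cd3e were above background on all 10 arrays, Cd3g on 1, and Cd3d and Cd8a on 0. Cd4 carried most of the change (1.23 ± 0.34 log2, limma adjusted p = 0.024), while Lck (0.08 ± 0.05) and Cd3e (-0.16 ± 0.16) did not pass. Of 6 fibroblast markers 1 to 3 were above background on an array, summing to 0.273 to 0.53 on the glucocorticoid arrays against 0.314 to 0.374 in EtoH, and B cell and epithelial markers were above background on 0 arrays. The part of these markers in the ligand results was not tested. In such bulk samples fewer cells expressing a gene and less RNA per cell cannot be told apart. Of 6 genes known to respond to glucocorticoids, 2 were higher, 2 lower and 2 not called in the mean of the 4 against EtoH. Among genes known to be induced, Fkbp5 changed by 2.11 ± 0.10 and Hp by 5.00 ± 0.08 on the log2 scale, Per1 went the other way (-0.37 ± 0.12, limma adjusted p = 0.040), and Tsc22d3 (0.13 ± 0.07, adjusted p = 0.17) and Dusp1 (0.06 ± 0.13, adjusted p = 0.73) did not pass. Il1b, known to be repressed, changed by -2.09 ± 0.08.

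Most of the measured ligands were lower in the glucocorticoid groups than in EtoH, and Icosl was higher. For the mean of the 4 glucocorticoids, 5 of 8 tested genes fell (Cd83, Cd40, Cd86, Cd274 and Tnfsf9), 1 rose (Icosl), and Cd80 and Icam1 did not pass the test. Over all genes tested, 22.5% were called lower and 21.6% higher in this comparison. The median change of the 8 genes was -0.37, against -0.004 over all genes. The sizes were modest, from 1.14-fold lower for Tnfsf9 to 2.3-fold lower for Cd83. Subtracting each array's median in place of its 75th percentile moved the median of all genes to 0.12, turned the share of higher genes among those called to 70.3%, against 49%, and left 2 of the 8 genes called, Cd83 lower and Icosl higher. Taking the 75th percentile over the probes well above background on all arrays moved the other way, to a median of -0.08 and a share of 39.3%, with 6 of the 8 genes called.

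**Figure D1:**
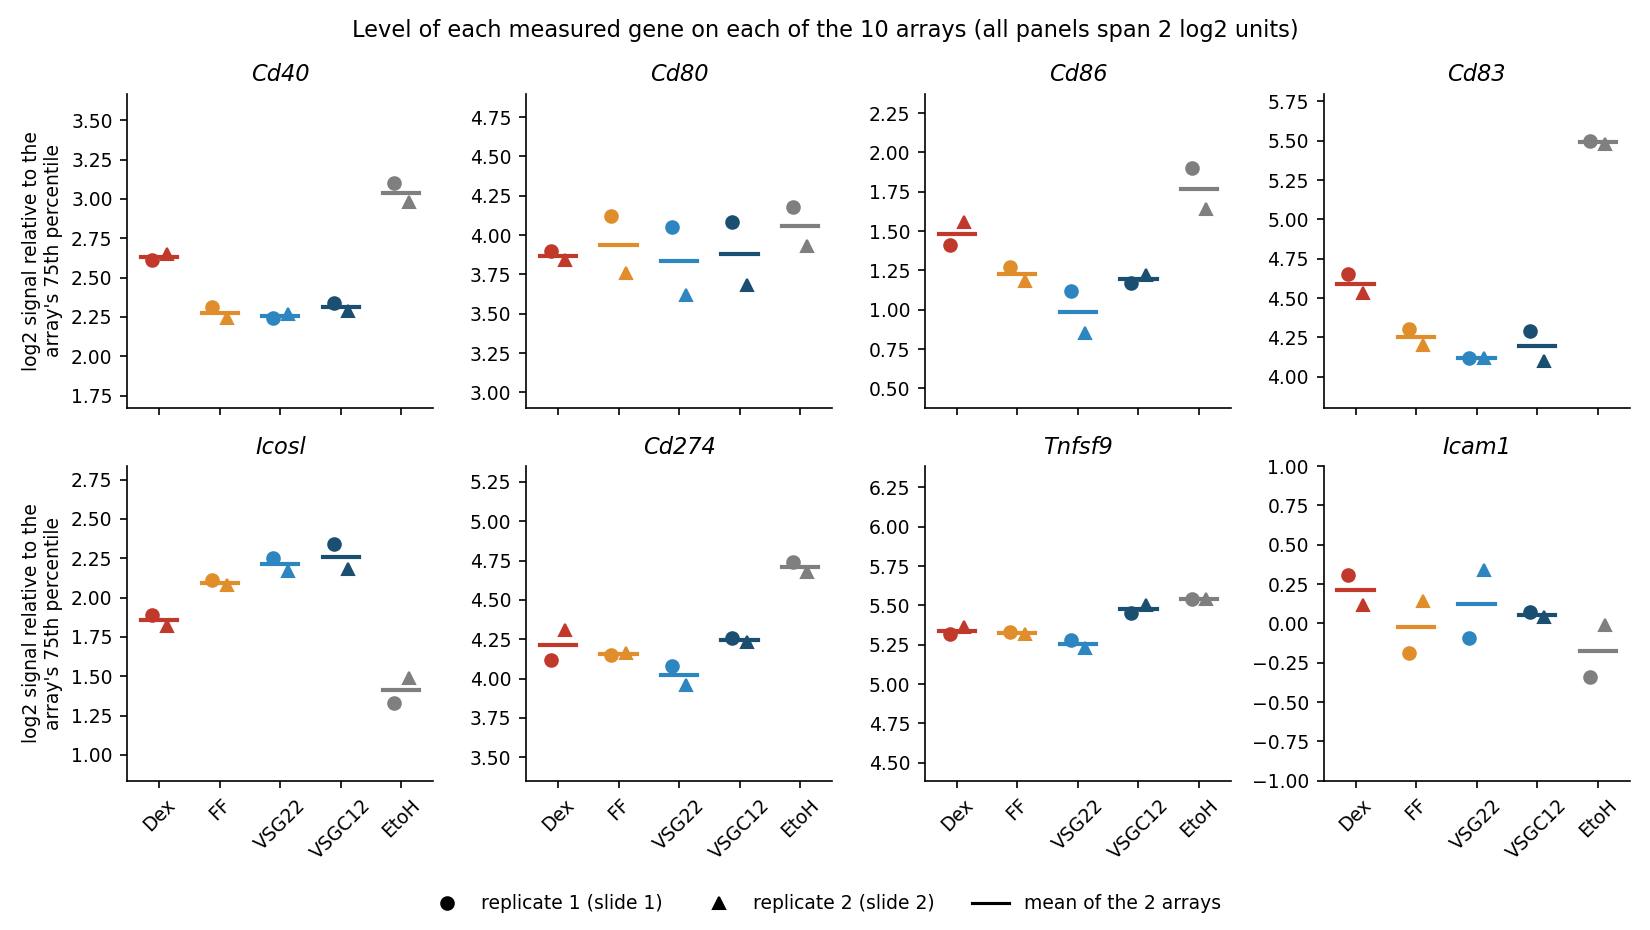
Level of the 8 tested genes on each of the 10 arrays (y axis, log2 signal relative to the array's 75th percentile), by group; circles are replicate 1 on slide 1, triangles replicate 2 on slide 2, bars the mean of the 2. The 8 glucocorticoid arrays lie below both EtoH arrays for Cd40, Cd86, Cd83, Cd274 and Tnfsf9 and above both for Icosl, while Cd80 and Icam1 overlap.

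Cd40, the receptor through which helper T cells activate macrophages, was measured by a probe at chr2:164897085-164897144 (mm9, + strand). It stood at 2.61 and 2.65 on the Dex arrays, 2.31 and 2.24 on FF, 2.24 and 2.27 on VSG22 and 2.34 and 2.29 on VSGC12, against 3.10 and 2.98 on EtoH. All 8 glucocorticoid arrays lay below both EtoH arrays, with Dex between the other 3 glucocorticoids and EtoH. The mean of the 4 was 0.67 ± 0.06 log2 lower than EtoH (change -0.67, 95% interval -0.82 to -0.52, 1.59-fold lower, limma adjusted p = 0.00029). It was -0.72 within slide 1 and -0.62 within slide 2. With the array median subtracted the change was -0.55 and did not pass (adjusted p = 0.059). Around the Cd40 spot, 3 spots were above background on all arrays. Their median changes relative to EtoH were -0.20 in Dex, -0.21 in FF, -0.17 in VSG22 and -0.06 in VSGC12. The part of this in the Cd40 result was not tested.

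Cd86 and Cd80 encode the ligands that CD28 and CTLA-4 share. Cd86, probed at chr16:36603961-36604020 (mm9, - strand), stood at 1.41 and 1.56 on Dex, 1.27 and 1.18 on FF, 1.12 and 0.85 on VSG22 and 1.17 and 1.22 on VSGC12, against 1.90 and 1.64 on EtoH. The groups did not overlap, but the nearest Dex and EtoH arrays were 0.08 apart. The mean of the 4 fell by 0.55 ± 0.10 log2 (1.46-fold lower, limma adjusted p = 0.0053), -0.66 within slide 1 and -0.44 within slide 2. This call rested partly on the higher EtoH array: without EtoH replicate 1 the change was -0.42 with an adjusted p of 0.057, and with the array median subtracted it was -0.43 with an adjusted p of 0.15.

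Cd80 did not pass the test. Its brighter probe, at chr16:38486772-38486831 (mm9, + strand), read 3.90 and 3.84 on Dex, 4.12 and 3.76 on FF, 4.05 and 3.62 on VSG22 and 4.08 and 3.68 on VSGC12, against 4.18 and 3.93 on EtoH. The groups overlapped, with 5 of 8 glucocorticoid arrays below both EtoH arrays, and slide 1 read higher than slide 2 in 5 of 5 groups. The change for the mean of the 4 was -0.17 ± 0.16 (95% interval -0.56 to 0.22, limma adjusted p = 0.43). Within slide 1 it was -0.14 and within slide 2 -0.20, all 8 arrays lay below the EtoH array of their own slide, and with the slide as a block the adjusted p was 0.15. Whether Cd80 and Cd86 changed by different amounts was not tested.

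The 2 Cd80 probes disagreed in Dex. The dimmer probe, at chr16:38479343-38479402 (mm9, + strand), read 2.17 and 2.13 on Dex, 1.92 and 1.55 on FF, 1.85 and 1.43 on VSG22 and 1.85 and 1.50 on VSGC12, against 1.96 and 1.72 on EtoH. Dex was thus the highest group by this probe, at 0.31 ± 0.20 above EtoH, where the brighter probe put Dex at -0.18 ± 0.21; neither change passed the test. The slide effect cancels in the difference of the probes on the same array: dimmer minus brighter was -1.73 and -1.71 on the Dex arrays and lay between -2.23 and -2.17 on the other 8. A shift of this size (0.48 log2) with no overlap was seen in Dex for 93 of 3390 genes with a pair of probes above background on all arrays (2.74%). It was thus uncommon in Dex without being particular to Cd80. The share with such a shift was 1.3% in FF, 1.27% in VSG22, 0.944% in VSGC12 and 16.3% in EtoH. Neither probe lay in a patch of raised local signal, and the cause of the difference was not tested.

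**Figure D2:**
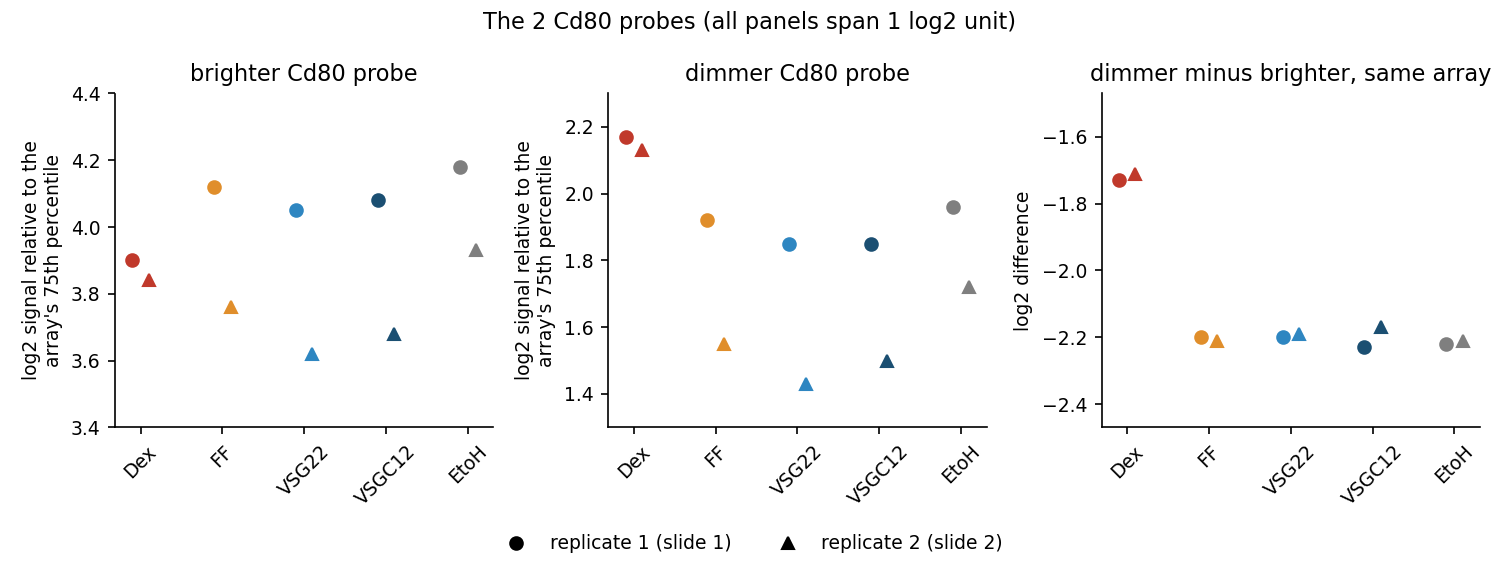
Signal of the brighter (left) and dimmer (middle) Cd80 probe and their difference on the same array (right), in log2 units, by group; circles are replicate 1 on slide 1 and triangles replicate 2 on slide 2. The difference is -1.73 and -1.71 on the Dex arrays and -2.23 to -2.17 on the other 8.

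Cd83, whose protein slows the removal of CD86 and MHC class II from the surface, changed most among the 8. Its probe (chr13:43898276-43898335, mm9, + strand) read 4.65 and 4.53 on Dex, 4.30 and 4.20 on FF, 4.12 and 4.12 on VSG22 and 4.29 and 4.10 on VSGC12, against 5.50 and 5.48 on EtoH. The highest glucocorticoid array lay 0.83 below the lowest EtoH array. The mean of the 4 was 2.3-fold lower than EtoH (-1.20 ± 0.07, 95% interval -1.37 to -1.03, limma adjusted p = 4.9e-05), -1.17 within slide 1 and -1.24 within slide 2. It was called in all 23 alternative settings, with changes between -1.30 and -1.08. The 9 spots around the Cd83 spot that were above background on all arrays had median changes of -0.40 in Dex, -0.36 in FF, -0.22 in VSG22 and -0.39 in VSGC12 relative to EtoH, and the part of this in the result was not tested.

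Icosl, the ligand of the T cell co-stimulator ICOS, moved the other way. Its probe (chr10:77542211-77542270, mm9, + strand) read 1.89 and 1.82 on Dex, 2.11 and 2.08 on FF, 2.25 and 2.17 on VSG22 and 2.34 and 2.18 on VSGC12, against 1.33 and 1.49 on EtoH. All 8 glucocorticoid arrays lay above both EtoH arrays, Dex the nearest to them. The mean of the 4 was 1.62-fold higher (0.70 ± 0.07, 95% interval 0.52 to 0.87, limma adjusted p = 0.00052), 0.82 within slide 1 and 0.58 within slide 2. It was called in all 23 alternative settings, with changes between 0.62 and 0.82.

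Promoter sequence was at hand from RefSeq (GRCm38.p6) for 5 of the 9 genes, Icosl, Cd80, Cd274, Pdcd1lg2 and Icam1. The 250 bases before the annotated start were searched on both strands for short forms of 4 motifs: GGNNTTTCC for NF-kB, TTCNNNGAA for STAT factors, GAAANNGAA for interferon regulatory factors and ACANNNTGT for the glucocorticoid receptor. Of 32851 promoter windows of that length, 4.93%, 7.02%, 7.13% and 5.84% held a match to these in that order. The Icosl window (chr10:78069118-78069367, + strand), shown because Icosl was the gene that rose, held 0 matches, as did those of Cd80 and Pdcd1lg2.
Icosl: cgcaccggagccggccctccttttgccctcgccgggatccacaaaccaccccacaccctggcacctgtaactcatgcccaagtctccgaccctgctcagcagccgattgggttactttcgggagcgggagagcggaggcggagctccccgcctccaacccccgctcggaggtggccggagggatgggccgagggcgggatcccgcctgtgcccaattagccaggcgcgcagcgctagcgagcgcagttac

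Cd274 encodes PD-L1, the ligand that restrains T cells through PD-1. Its probe (chr19:29462363-29462422, mm9, + strand) read 4.12 and 4.31 on Dex, 4.15 and 4.16 on FF, 4.08 and 3.96 on VSG22 and 4.26 and 4.23 on VSGC12, against 4.74 and 4.68 on EtoH. The highest glucocorticoid array lay 0.37 below the lowest EtoH array. This gene was thus lower together with Cd86, whose protein engages both CD28 and CTLA-4. For Cd274 the mean of the 4 fell by 0.55 ± 0.07 log2 (95% interval -0.72 to -0.38, 1.46-fold lower, limma adjusted p = 0.0012), -0.58 within slide 1 and -0.52 within slide 2. With the array median subtracted the change was -0.43 (adjusted p = 0.14).

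The Cd274 window (GRCm38.p6, chr19:29367188-29367437, + strand) held 1 match, to the interferon regulatory factor motif at bases -76 to -68 before the start, shown in capitals. A match of these letters is a description of the sequence, and binding was not measured.
Cd274: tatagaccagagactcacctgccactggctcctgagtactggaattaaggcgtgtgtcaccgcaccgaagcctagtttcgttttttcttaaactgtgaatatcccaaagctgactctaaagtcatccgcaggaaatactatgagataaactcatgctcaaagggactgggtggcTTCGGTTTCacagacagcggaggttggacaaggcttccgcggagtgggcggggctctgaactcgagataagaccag

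Pdcd1lg2, the PD-L2 gene, was not well above background by either of its probes (chr19:29545470-29545529 and chr19:29545473-29545532, mm9, + strand) on any of the 10 arrays. The probes overlap and share most of their target, and 1 of them lay in a patch of raised signal on EtoH replicate 2. They read -5.81 to -3.26, where the lowest signal counted as well above background was -3.93 to -3.21 depending on the array. The gene was not tested, and its readings give no order of the groups.

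Tnfsf9, the TNF family ligand of TNFRSF9, moved least among the genes that passed. Its probe (chr17:57247062-57247121, mm9, + strand) read 5.32 and 5.36 on Dex, 5.33 and 5.32 on FF, 5.28 and 5.23 on VSG22 and 5.45 and 5.50 on VSGC12, against 5.54 and 5.54 on EtoH. All 8 glucocorticoid arrays lay below both EtoH arrays, VSGC12 by 0.04 at the nearest. The mean of the 4 fell by 0.19 ± 0.05 log2 (1.14-fold lower, limma adjusted p = 0.025), -0.19 within each slide. The call was lost in 6 of 23 alternative settings: without EtoH replicate 1 or replicate 2 (adjusted p = 0.13 each), without VSG22 replicate 1 (0.050) or replicate 2 (0.060), with dim probes kept (0.20) and with the array median subtracted (-0.07, 0.83).

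Icam1, the adhesion ligand of the integrins LFA-1 and Mac-1, did not pass the test. Its probe (chr9:20832290-20832349, mm9, + strand) read 0.31 and 0.12 on Dex, -0.19 and 0.14 on FF, -0.09 and 0.34 on VSG22 and 0.07 and 0.04 on VSGC12, against -0.34 and -0.01 on EtoH. The groups overlapped, with 6 of 8 glucocorticoid arrays above both EtoH arrays. The change was 0.27 ± 0.15 (95% interval -0.09 to 0.63, limma adjusted p = 0.19), 0.37 within slide 1 and 0.17 within slide 2. A fall as large as that of Cd83 or Cd40 lay outside this interval.

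The Icam1 window (GRCm38.p6, chr9:21015690-21015939, + strand) is shown because it held 3 matches, in capitals. These were 2 to NF-kB, at -153 to -145 and -84 to -76, and 1 to STAT factors at -42 to -34. None of the 5 windows held the glucocorticoid receptor motif.
Icam1: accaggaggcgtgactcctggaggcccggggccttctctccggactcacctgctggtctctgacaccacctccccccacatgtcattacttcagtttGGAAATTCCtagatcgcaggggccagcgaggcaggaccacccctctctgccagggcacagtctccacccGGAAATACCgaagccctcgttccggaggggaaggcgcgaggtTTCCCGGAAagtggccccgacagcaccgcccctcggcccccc

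Each glucocorticoid was then set against EtoH on its own; the 4 comparisons share the same 2 EtoH arrays. Dex called 3 of the 8 genes lower and 1 higher (all genes: 15.7% lower and 16.5% higher). FF called 5 lower and 1 higher (19.2% and 17.9%), VSG22 5 lower and 1 higher (14.5% and 16.1%), and VSGC12 4 lower and 1 higher (18.3% and 17.2%). The higher gene was Icosl each time. Cd83, Cd40 and Cd274 were called lower in all 4 glucocorticoids, and for the genes named here each glucocorticoid array lay on that side of the EtoH array of its own slide. With the array median subtracted, 0 genes stayed past the threshold in Dex, 1 in FF (Cd83), and 2 each in VSG22 and VSGC12 (Cd83 and Icosl). With dim probes kept, 1 of the 8 was called in Dex (Cd83), 4 in FF without Cd86 (adjusted p = 0.078) and Tnfsf9 (0.28), 5 in VSG22 without Tnfsf9 (0.19), and 3 in VSGC12 without Cd86 (0.070) and Cd274 (0.066). With the percentile over probes above background on all arrays, 6 were called in Dex, where Cd86 (-0.38, adjusted p = 0.050) and Tnfsf9 (-0.29, 0.022) also passed.

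Cd83 changed by -0.90 ± 0.09 in Dex, -1.24 ± 0.09 in FF, -1.37 ± 0.09 in VSG22 and -1.30 ± 0.09 in VSGC12. Cd40 changed by -0.41 ± 0.08, -0.76 ± 0.08, -0.79 ± 0.08 and -0.72 ± 0.08 in Dex, FF, VSG22 and VSGC12. For both genes Dex gave the smallest fall. Icosl changed by 0.45 ± 0.09 in Dex, 0.69 ± 0.09 in FF, 0.80 ± 0.09 in VSG22 and 0.85 ± 0.09 in VSGC12, again smallest in Dex. Without EtoH replicate 1, the Dex changes of Cd40 (-0.35, adjusted p = 0.059) and Icosl (0.37, adjusted p = 0.076) did not pass, and with normexp background correction the Dex change of Cd40 was -0.15 (adjusted p = 0.18).

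Cd86 was not called in Dex (-0.29 ± 0.13, limma adjusted p = 0.13) but was in FF (-0.55 ± 0.13), VSG22 (-0.78 ± 0.13) and VSGC12 (-0.58 ± 0.13). The FF call was lost without EtoH replicate 1 (adjusted p = 0.087) or either FF array (0.052 and 0.077), and the VSGC12 call without EtoH replicate 1 (0.076) or either VSGC12 array (0.063 and 0.052). Cd274 changed by -0.49 ± 0.09 in Dex, -0.55 ± 0.09 in FF, -0.69 ± 0.09 in VSG22 and -0.46 ± 0.09 in VSGC12, and VSGC12 minus Dex was 0.03 (95% interval -0.18 to 0.24). Tnfsf9 passed in FF (-0.22 ± 0.07) and VSG22 (-0.28 ± 0.07) and not in Dex (-0.20 ± 0.07, adjusted p = 0.058) or VSGC12 (-0.07 ± 0.07, adjusted p = 0.48). The FF call of Tnfsf9 was lost on leaving out any array (adjusted p 0.051 to 0.14) or with probes taken singly (0.051), and its VSG22 call without either EtoH or either VSG22 array (0.079 to 0.12).

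**Figure D3:**
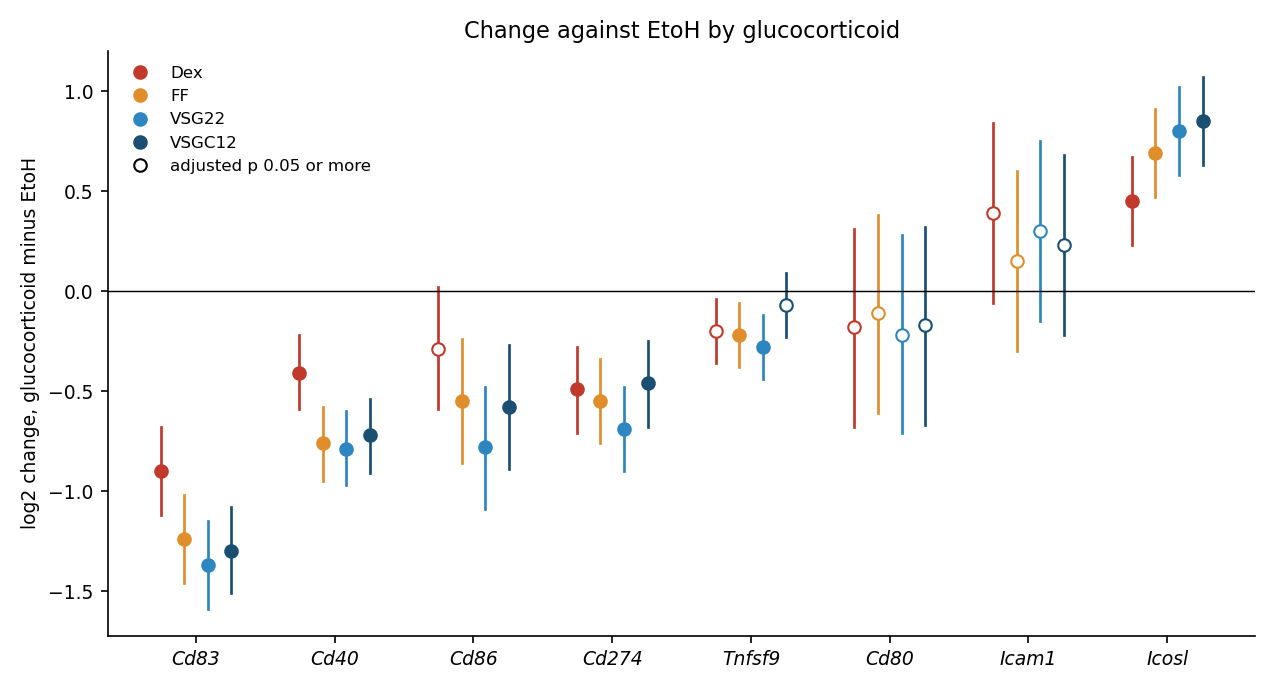
Log2 change of each tested gene in each glucocorticoid minus EtoH (y axis) with its 95% interval; filled points passed the adjusted p threshold and open points did not. Cd83, at -0.90 to -1.37, lies lowest and Icosl, at 0.45 to 0.85, is the gene called higher, while all intervals of Cd80 and Icam1 include 0.

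Whether the glucocorticoids differed from each other was tested in 6 pairs at the matched dose of 100 nM, which made 48 differences over the 8 genes. In limma 0 of the 48 passed the adjusted threshold, and 12 had an unadjusted p under 0.05, 10 of them in pairs with Dex. Between FF and Dex, 3 of the 8 and 2602 of all 18032 genes had such an unadjusted p. Between VSG22 and Dex these were 4 and 3015 of 18044, and between VSGC12 and Dex 3 and 2678 of 18043. Over all genes, 0.549% were called between VSG22 and Dex, 0.394% between VSGC12 and Dex and 0.366% between FF and Dex. The corresponding share was 0% between VSG22 and FF, 0.00555% between VSGC12 and FF and 0% between VSGC12 and VSG22, where 1708, 759 and 1291 genes had an unadjusted p under 0.05.

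The nearest to a call was Cd83, lower in VSG22 than in Dex by 0.47 ± 0.09 log2 (-0.54 within slide 1 and -0.41 within slide 2, 95% interval -0.69 to -0.26, limma adjusted p = 0.094). In the same pair Cd40 was at -0.38 ± 0.08 (95% interval -0.56 to -0.19, adjusted p = 0.10), with -0.37 within slide 1 and -0.38 within slide 2. Cd86 was at -0.50 ± 0.13 (-0.80 to -0.19, adjusted p = 0.14), with -0.29 and -0.71 within the slides, and Icosl at 0.35 ± 0.09 (0.13 to 0.58, adjusted p = 0.15), with 0.36 and 0.35. Set against Dex, FF and VSGC12 also read lower for Cd83 (-0.34 and -0.40) and Cd40 (-0.36 and -0.31) and higher for Icosl (0.24 and 0.41), with adjusted p-values of 0.16 to 0.31 for these 6. With normexp background correction Cd40 passed in VSG22 (-0.54, adjusted p = 0.042) and VSGC12 (-0.49, adjusted p = 0.050) against Dex. These 3 pairs share the 2 Dex arrays, which were also the least alike of the 5 pairs of replicates.

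Among FF, VSG22 and VSGC12 the differences lay between -0.13 and 0.08 for Cd83, -0.02 and 0.06 for Cd40 and 0.05 and 0.16 for Icosl, while those of Cd274 and Tnfsf9 reached 0.23 and 0.22. Over these 3 pairs the intervals ran from -0.21 to 0.25 for Cd40, -0.35 to 0.30 for Cd83 and -0.17 to 0.38 for Icosl. For Cd86 they ran from -0.54 to 0.51 and for Cd80 from -0.60 to 0.54, with Icam1 at -0.52 to 0.60, so these 3 genes bound a difference less closely. VSGC12 minus VSG22 was 0.22 ± 0.07 for Tnfsf9 (95% interval 0.06 to 0.38) and 0.23 ± 0.09 for Cd274 (0.01 to 0.44), each with an adjusted p of 0.68. The moderated F-test over the 4 glucocorticoids called 46 of 18028 genes and 0 of the 8, of which 4 had an unadjusted p under 0.05; the lowest adjusted p among the 8 was 0.24.

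**Figure D4:**
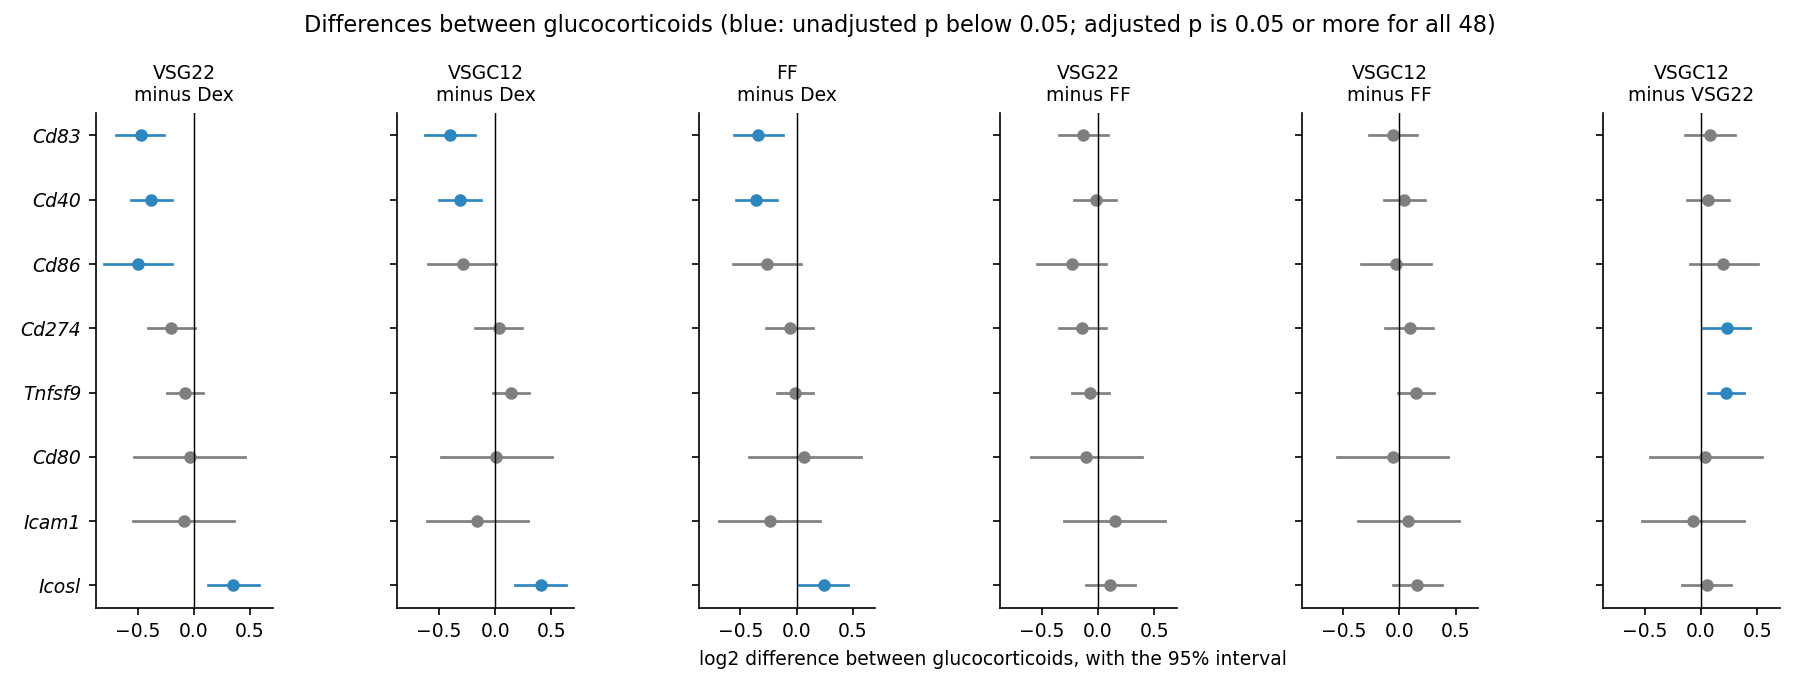
Log2 difference between each pair of glucocorticoids (x axis) with its 95% interval, for the 8 tested genes; blue marks an unadjusted p under 0.05, which 12 of 48 had, and 0 of 48 passed the adjusted threshold. Cd83 and Cd40 lie left of 0 and Icosl right of 0 in the 3 pairs with Dex.

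The 8 profiles were also set side by side by the root-mean-square difference over the 10 arrays after each gene's own mean was subtracted. Cd40 and Cd86 were the nearest pair (0.12), followed by Cd86 and Cd274 (0.13), and Cd83 and Icosl were farthest apart (0.82). Among 13429 genes with a symbol, the nearest were Phf11a (0.057) and Cep19 (0.058) to Cd40, Armt1 (0.076) and Tmem239 (0.088) to Cd86, and Colec12 (0.082) and Cd300ld (0.084) to Cd83. Icosl was nearest to Cpsf2 (0.052) and Nsmce4a (0.063), Cd274 to Serpinb6c (0.066) and Bdh2 (0.069), and Tnfsf9 to Tmem199 (0.041) and Kcmf1 (0.047). Values are small for Tnfsf9 because it varied little itself (0.11 about its own mean, against 0.51 for Cd83).

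Of 11 receptors of these ligands, 7 were measured in the macrophages themselves, with 2 lower and 3 higher in the mean of the 4 (all genes 22.5% and 21.6%). Tnfrsf9, the receptor of the Tnfsf9 ligand, averaged 7.12, 6.55, 6.49 and 6.58 in Dex, FF, VSG22 and VSGC12, against 7.76 in EtoH. It fell by 1.08 ± 0.08 log2 (limma adjusted p = 0.00014). The change of the ligand Tnfsf9 was smaller (-0.19 ± 0.05) and was not called in Dex or VSGC12 alone. Cd28 encodes the receptor of CD80 and CD86 on T cells. Cd28 averaged -2.84 in Dex, -3.31 in FF, -3.13 in VSG22 and -3.40 in VSGC12, against -0.84 in EtoH (-2.33 ± 0.19, limma adjusted p = 0.00017). It was near background in the glucocorticoid groups, above it on both arrays in Dex and VSG22 and on 1 of the 2 in FF and in VSGC12, and a Cd28 probe on a Dex array lay in a patch of raised signal. Among the integrin chains that bind ICAM1, Itgam was higher by 1.29 ± 0.09, Itgb2 by 0.37 ± 0.06 and Itgax by 0.37 ± 0.13 (limma adjusted p = 0.049). Itgal, a chain of LFA-1, was at -0.09 ± 0.10 and did not pass. The median of the 7 was 0.19, and Ctla4, Icos, Pdcd1 and Cd40lg did not pass the filter on dim probes in any group.

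All 14 genes of CD40 and TNF receptor signalling were measured, with 5 lower, 4 higher and 5 not called (median -0.17), where 22.5% of all genes were lower and 21.6% higher, so the counts are no result about the list. Lower were the adaptors Traf5 (-0.94 ± 0.08) and Traf1 (-0.80 ± 0.08), with Nfkb2, Traf6 and Tank, and higher were Traf3 (0.58 ± 0.08), known to hold the alternative NF-kB pathway in check, and Tnfaip3 (0.45 ± 0.07), the A20 enzyme that ends NF-kB signalling, with Traf4 and Map3k14. Of 14 transcription factors known to act at these ligands 12 were measured, with 6 lower and 1 higher (median -0.22; all genes 22.5% and 21.6%). Myc fell most (-1.77 ± 0.15). Irf1, averaging 2.79, 2.79, 2.76 and 2.77 in Dex, FF, VSG22 and VSGC12 against 3.25 in EtoH, changed by -0.47 ± 0.07 and Irf8 by -0.54 ± 0.10, whereas Nfkb1 rose by 0.65 ± 0.11. Rela was 0.30 ± 0.07 lower.

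Among regulators that set the amount of ligand protein at the surface, 10 of 11 were measured, with 2 lower and 4 higher (median -0.11; all genes 22.5% and 21.6%). Marchf1, the ubiquitin ligase that removes CD86 and MHC class II from the surface, averaged 1.58, 2.02, 1.25 and 1.67 in Dex, FF, VSG22 and VSGC12, against -0.36 in EtoH. It rose by 1.99 ± 0.28 (limma adjusted p = 0.0017), while Cd83, whose protein opposes it, and Cd86 fell. On a Dex array a Marchf1 probe lay in such a patch; the change was 2.38 in FF, 1.61 in VSG22 and 2.04 in VSGC12. The proteases Adam17 (0.28 ± 0.08) and Adam10 (0.27 ± 0.07) were slightly higher, and Cmtm4 (-0.37 ± 0.09), which like Cmtm6 steadies the PD-L1 protein, and Cd74 (-0.30 ± 0.07) were lower. Cmtm6 did not pass (-0.21 ± 0.08, adjusted p = 0.073). Protein at the surface was not measured.

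**Figure D5:**
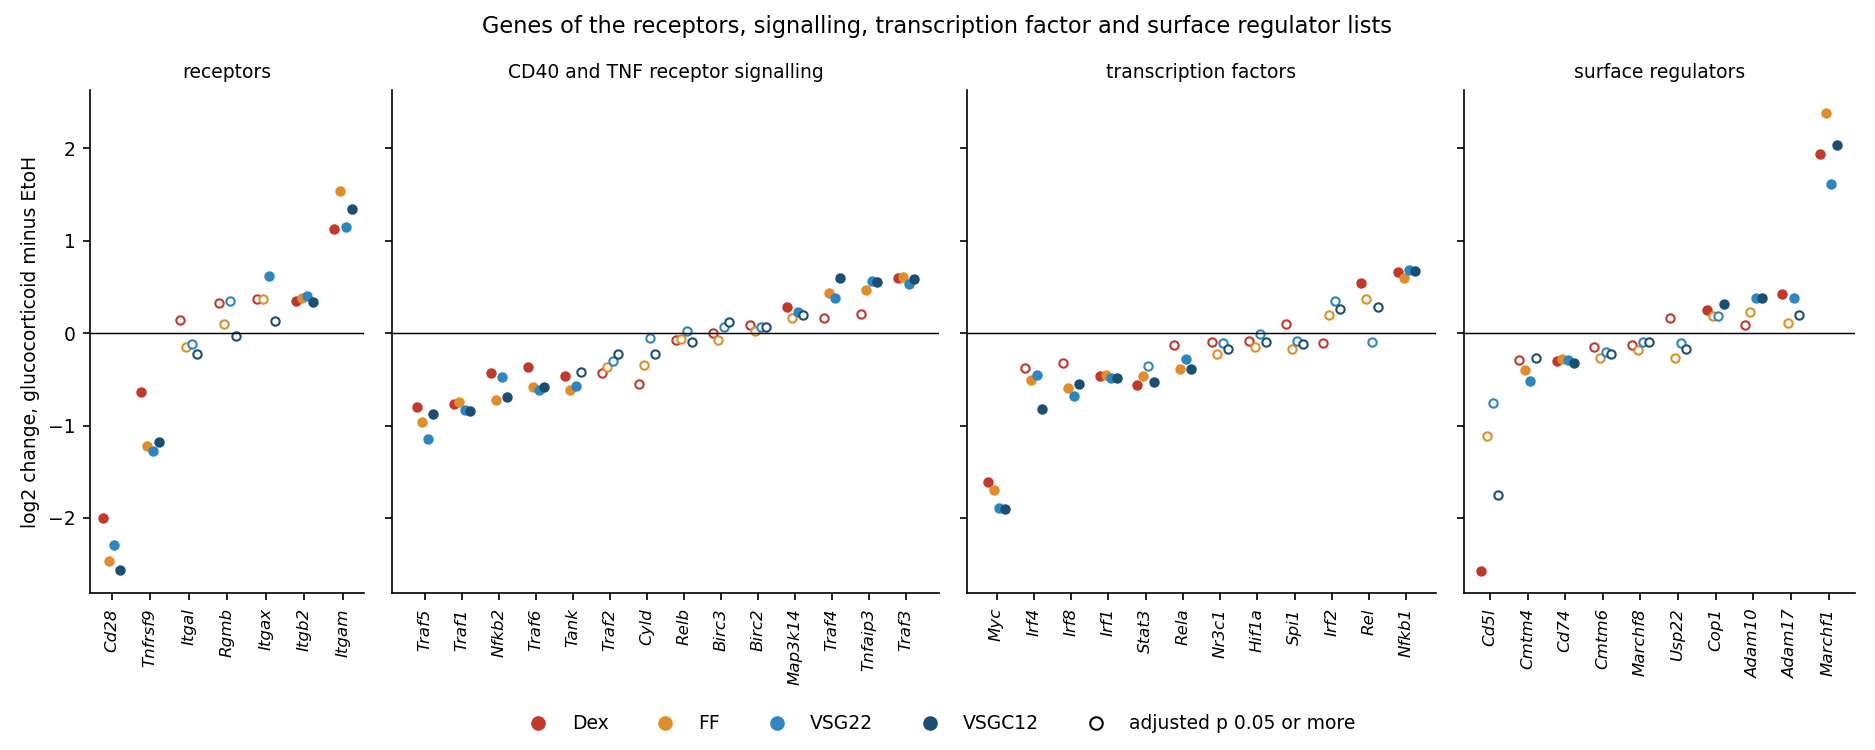
Log2 change of the measured genes of 4 lists in each glucocorticoid minus EtoH (y axis); filled points passed the adjusted p threshold. Cd28, Tnfrsf9, Traf5, Traf1 and Myc lie below 0 and Itgam, Traf3, Nfkb1 and Marchf1 above 0 in all 4 glucocorticoids.

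Other genes of the B7, TNF, nectin and adhesion families, ligands with some receptors among them, were mixed as well. Of 34 listed, 21 were measured, with 10 lower, 5 higher and 6 not called (median -0.45, all genes 22.5% lower and 21.6% higher). Tnfsf15, counted among the lower, was above background on the 2 EtoH arrays only, so its fall is a bound, at least 1.22-fold. Lowest were Cd72 (-1.27 ± 0.10), which binds semaphorin SEMA4D, and the self-binding receptor Slamf7 (-1.24 ± 0.08), and highest were Icam2 (1.16 ± 0.09), another integrin ligand, and Sema4a (0.91 ± 0.20). Sema4d, the ligand of CD72, was also lower (-0.97 ± 0.06), as was the checkpoint gene Vsir (-0.73 ± 0.07), and Cd47, the signal against engulfment, was higher (0.64 ± 0.07). MHC class II presentation, through which the antigen itself is shown, was weakly represented, with 7 of 16 genes measured. Of these 3 were lower and 1 higher (median -0.09, all genes 22.5% and 21.6%). H2-DMa (-0.42 ± 0.08), Cd74 and Ctss (-0.30 ± 0.08) were lower and Ifi30 (0.53 ± 0.07) higher. A probe each of Vsir, Tnfsf15, H2-DMa, Traf6 and Il1b lay in a patch of raised signal on a Dex array, as for Cd28 and Marchf1.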

How the data were processed

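RNA from RAW264.7 cells was labelled from 150 ng and read on 10 single-colour Agilent arrays. Per the file headers, the deposited values are intensity from Agilent Feature Extraction 10.7.3.1: mean signal, local background and a processed signal, background-subtracted and detrended within the array by the authors' software. The other deposited columns are software flags, per the file headers. The submitters' processing notes list limma with no version.

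Outlier spots were left out. A probe was above background if more than 0.5 of its spots were. Each gene took its brightest probe, among probes above background on all arrays of some group. Groups were fitted together in limma 3.58.1 (R 4.3.3; 5 residual and 1.81 prior degrees of freedom), with the slide as a block as an alternative. No member value was missing. A spot lay in a patch where at least 3 of the 24 around it were above background on that array and in no other group. Probes were named through GRCm38.p6, used for names and promoters only; mm9 positions were not placed in exons or UTRs because no mm9 annotation was used. The precision is limited by the number of arrays.

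The members, lists and tests were chosen with earlier results of these data known. Named were all 9 members, the 2 nearest profiles of each called member, and, in each list, up to 2 called genes at either end and genes known to act with a member. Vsir, Cd47, Tnfsf15 and Sema4d were named in addition, while other called genes of their list were not. Of the 14 alternatives, the closing section gives the effects. The fit was tested on simulated data.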

Additional observations from a re-analysis of the deposited data

How the results depend on the processing

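Against EtoH, the 27 called changes of single ligands kept their direction in all 617 values over the alternatives and their call in 558; the 59 lost calls came with the array median subtracted (20), dim probes kept (9), 1 array left out, the 2 Dex arrays left out (1), probes taken singly (1) and normexp background correction (1). Of the 295 values of the 13 changes not called, 5 passed and 8 changed sign. The 5 were in Dex: Tnfsf9 with the percentile over detected probes (adjusted p = 0.022), quantile normalization (0.017), limma's trend (0.031) and outlying spots kept (0.046), and Cd86 with the percentile over detected probes (0.050). The sign changes were Cd80 in FF with normexp (0.00), Tnfsf9 in VSGC12 with the array median subtracted (0.11), Cd80 in Dex with the mean of its probes (0.06) and, on leaving out 1 array, Cd80 in FF (-0.29 to 0.07), Icam1 in FF (-0.02 to 0.32) and Cd80 in VSGC12 (-0.38 to 0.03). Of 1080 values for the 48 differences between glucocorticoids, 37 changed sign and 2 passed. The causes were not tested, beyond what each setting changes by construction.

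The genes called over all genes numbered 7961 for the mean of the 4, then 5819, 6693, 5518 and 6411 for Dex, FF, VSG22 and VSGC12 against EtoH. With the array median subtracted they were 3760, 2033, 2497, 1789 and 2370, and the ligands called 2, 0, 1, 2 and 2. With dim probes kept they were 4925, 2369, 3314, 2713 and 3104, and the ligands called were 5, 1, 4, 5 and 3. Leaving out 1 array gave 4670 to 8937 for the mean of the 4, 2987 to 6303 for Dex, 3914 to 7584 for FF, 2898 to 5940 for VSG22 and 3850 to 7160 for VSGC12, with 4 to 6, 2 to 4, 4 to 5, 5 to 6 and 4 to 5 ligands called. The lowest of these came without EtoH replicate 2 (mean of the 4, FF and VSGC12), EtoH replicate 1 (Dex) and VSG22 replicate 1 (VSG22). Where 1 array of a group was left, it was assumed to vary like the other groups.

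Between glucocorticoids, 66 genes were called for FF against Dex, 99 for VSG22 against Dex, 71 for VSGC12 against Dex, 0 for VSG22 against FF, 1 for VSGC12 against FF, 0 for VSGC12 against VSG22 and 46 by the F-test. The array median gave 126, 239, 111, 33, 14, 11 and 160 in that order, dim probes kept 3, 5 and 5 against Dex with 0 for VSGC12 against FF and 0 by F, and only probes above background on all arrays 0, 5 and 18 against Dex and 1 by F. Leaving out probes in patches gave 6, 23 and 22 against Dex, 1 for VSG22 against FF and 4 by F. Normexp gave 115 for VSGC12 against Dex and 27 by F, and called 1 ligand, Cd40, in VSG22 and in VSGC12 against Dex. Quantile normalization gave 153 for VSG22 against Dex, 1 for VSG22 against FF and 1 for VSGC12 against VSG22, and limma's trend 191 for VSG22 against Dex and 1 by F. VSGC12 against FF gave 0 with the mean of a gene's probes, and probes taken singly gave 3 for it and 3 for VSG22 against FF. Without both Dex arrays the last 3 pairs gave 12, 2 and 1. Leaving out 1 array gave 0 to 257, 0 to 1215, 0 to 586, 0 to 12, 0 to 2, 0 to 1 and 0 to 422 in the order above, the highest without Dex replicate 1, and 0 ligands called in each pair.

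The replicate block (slide) gave 31 genes for FF against Dex, 0 for VSGC12 against FF and 14 by F and changed no ligand's call. Same-numbered arrays deviated together with correlations of -0.03 to 0.33, not all over 0.1, so the samples share a number and a slide rather than a shown pairing. Signal over background limits Pdcd1lg2. With the slide as a block the SE was 0.09 for Cd80, against 0.16 without it, and 0.13 for Icam1, against 0.15, and neither passed.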

Other observations

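Over the 3 to 11 spots around each tested ligand's spot that were above background on all arrays, the median change against EtoH lay between -0.40 (Cd83 in Dex) and 0.32 (Cd274 in VSG22). Around the Tnfsf9 spot it was -0.19 in Dex, where Tnfsf9 itself changed by -0.20. Around the spots of the brighter and the dimmer Cd80 probe, Dex minus FF was 0.07 and 0.09 and Dex minus EtoH 0.12 and -0.08, where dimmer minus brighter probe was 0.48 higher in Dex than in the other groups, the probes lying closer together. Tnfrsf9, the receptor of the Tnfsf9 ligand, changed by -0.64 ± 0.11 in Dex, -1.22 ± 0.11 in FF, -1.27 ± 0.11 in VSG22 and -1.18 ± 0.11 in VSGC12, relative to EtoH.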
